A study of Mus musculus with 6 samples.

Results

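Apolipoprotein E and the genes that make, sense, move and clear cholesterol were followed across the 6 libraries of the P7 cortex. The members were 35 genes chosen by their known roles, out of 24972 genes in the deposited table, and every one was found there by its symbol. All 35 passed the filter on low values that was applied to the whole table, so none was lost. They comprise 18 enzymes of synthesis, 5 regulators, 7 genes of uptake and intracellular transport, and 5 genes of lipid carriage, export and sterol clearance.

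RNA came from the cortex of mouse pups on postnatal day 7, and GEO labels 3 libraries as wildtype and 3 as Zmiz1 knockout (Zmiz1-KO). Every mouse carried the floxed allele Zmiz1f/f, which served as wildtype, and the mutants were Zmiz1f/f;Emx1Cre. Emx1-driven Cre acts in the progenitors of the cortical wall, whose offspring are excitatory neurons and glia, whereas interneurons, microglia and vessels arise elsewhere and would keep the floxed gene. The sources used here do not say whether a library came from a single animal, so the tests measure the spread between these libraries. Values are the authors' normalized counts. The deleted gene does not check the labels. Zmiz1 was at 7461 to 8119 normalized counts in wildtype and at 9660 to 9944 in the Zmiz1-KO-labelled libraries, and a value per gene cannot separate transcripts with and without the floxed part. The groups are therefore named by their labels, and every direction given here rests on them. Zmiz1 was also measured by qPCR in the study, which was not analysed here. The cortical label fits the markers, with Slc17a7, the vesicular glutamate transporter of cortical excitatory neurons, at 18675 to 20879 normalized counts in all libraries. Each group held 1 library with abundant Xist, wildtype replicate 3 and Zmiz1-KO-labelled replicate 2. The choroid plexus transcript Ttr ranged from 89.8 to 7728 between libraries.

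Neurons and glia make nearly all brain cholesterol in place, because lipoproteins of the blood do not cross into the tissue. Synthesis runs from acetyl-CoA through mevalonate, isoprenoids and squalene to lanosterol and then to cholesterol. The transcription factor SREBP2, product of Srebf2, is carried by SCAP to the Golgi when membrane sterol is low and switches on the enzymes, while INSIG proteins hold SCAP back when sterol is plentiful. Astrocytes load cholesterol onto apolipoprotein E through ABC transporters, neurons take up the particles through receptors of the LDL receptor family, and surplus neuronal cholesterol leaves the brain after hydroxylation by CYP46A1. The first postnatal weeks, with rapid membrane growth and the onset of myelination, are a period of high synthesis.

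Divided by the length of their annotated exons, the transcripts of the members covered a wide range. Apoe was the most abundant at 11046 ± 166 normalized counts per kb in wildtype, followed by Hmgcs1 at 7132 ± 274 (SD, n = 3 each). Hmgcs1 encodes the cytosolic synthase that forms HMG-CoA. Next came Acat2, Fdft1, Srebf2, Sqle and Lrp1, between 1306 and 2070 per kb (2069.8 for Acat2). At the low end stood Ebp at 151, Npc1 at 127, Abcg1 at 114 and Soat1, the enzyme that stores cholesterol as esters, at 59.9 per kb. Srebf2 was at 1458 ± 40.2 per kb and Srebf1, whose product mainly drives fatty acid genes, at 280.3 ± 8.20 (SD, n = 3 each). Among the receptors, Lrp1 stood at 1306, Lrp8 at 656 and Vldlr at 457 per kb. Exon lengths count each base of the annotated exons once, over all transcripts of the gene. A gene with long, rarely used exons therefore appears lower than it is.

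**Figure D1:**
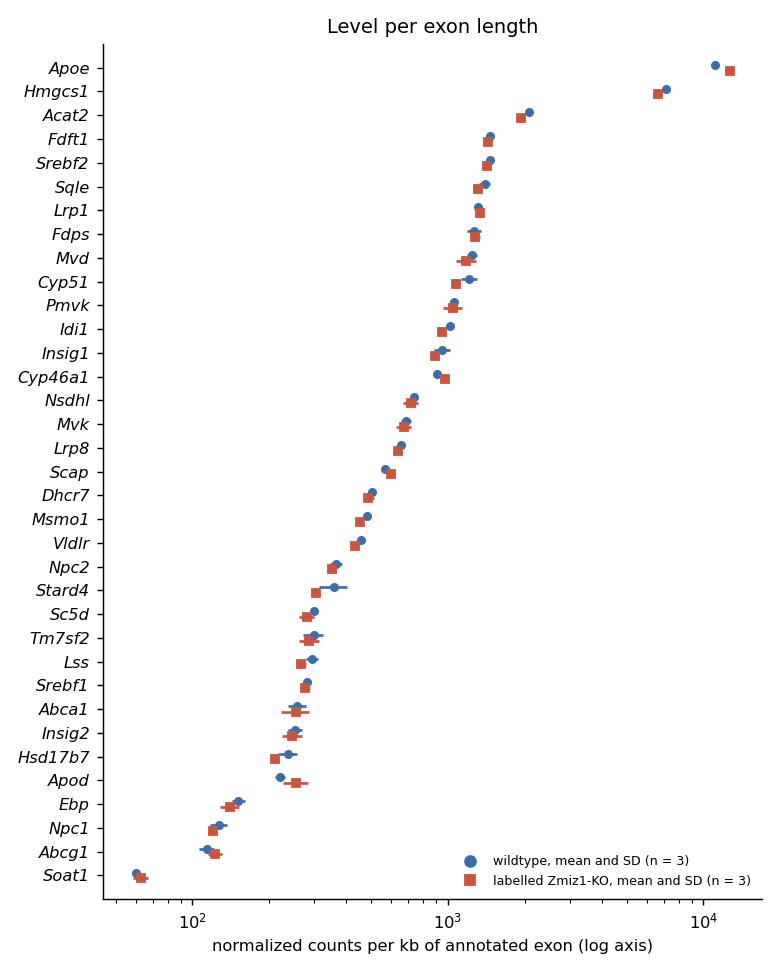
Level of each of the 35 genes in normalized counts per kb of annotated exon on a log axis, with blue circles for wildtype and red squares for the Zmiz1-KO-labelled libraries (mean and SD, n = 3 each). Apoe leads at 11046 in wildtype and 12697 in the other group, Hmgcs1 follows, and Soat1 is lowest at 59.9 in wildtype.

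The first comparison asked which of these genes differed between the genotypes, and Apoe was the only one called. Of the 35 genes, 1 had an adjusted p by limma at or under 0.05, beside 0.411% of the 15800 genes tested. It was higher, beside 0.165% of all genes called higher, and no member was called lower, beside 0.247% of all genes. Without adjustment, 10 of the 35 had a limma p under 0.05, beside 11% of all tested genes. Of these 10, 3 were higher (5.13% of all tested genes) and 7 lower (5.84%). With adjustment, limma-voom also called 1. Wildtype and the other group were fully separated in 12 genes. In 3 of these the Zmiz1-KO-labelled libraries lay above wildtype (8.1% of all tested genes) and in 9 below (8.16%). Estimates were below 0 for 27 of the 35, against 50.1% of all tested genes, and their median log2 fold change was -0.05. The median size of change, without its sign, was 0.08 over the members and 0.07 over all tested genes. Apoe was among the genes that the study itself reported as changed in these libraries, so its call is not independent of that choice.

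Carriers and exporters were the role group whose estimates leaned upward, with 4 of 5 above 0 and a median of 0.11 on the log2 scale. Apoe, the main lipid carrier that astrocytes and microglia secrete, lies on chromosome 7 of GRCm38 from 19696109 to 19699188 on the minus strand. It had values of 23547, 24000.0 and 23299.8 in wildtype, given in normalized counts in replicate order, and of 27697, 26487 and 27254 in the Zmiz1-KO-labelled libraries. All 3 of the latter lay above all of wildtype, and the gap between the groups, from 24000.0 to 26487, was wider than the spread within either. Apoe rose by 14.9%, a log2 fold change of 0.20 (standard error 0.034, 95% interval 0.13 to 0.27, adjusted p by limma = 0.0129). The exact two-sided permutation test of 3 against 3 libraries gave p = 0.1, the smallest value it can give. The difference was also present between the high-Xist libraries, 26487 against 23299.8, and among the other libraries, and with Xist as a covariate the change was 0.20 (adjusted p by limma = 0.0154). Its size barely moved with any library left out, from 0.19 to 0.22, but the call did. The adjusted p by limma was 0.0628 without wildtype replicate 3, 0.123 without Zmiz1-KO-labelled replicate 1, 0.142 without Zmiz1-KO-labelled replicate 3, and 0.0556 with all libraries but without robust estimation.

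In bulk tissue, fewer cells of a type and less RNA per cell cannot be told apart, so marker lists are given beside Apoe. The summed level of 12 astrocyte markers was 85485 to 90351 normalized counts in wildtype and 79212 to 87214 in the Zmiz1-KO-labelled libraries. Of the 12, 9 had estimates below 0. Only Aqp4, the water channel of astrocyte endfeet, was called, and it fell, with 5375 ± 233 normalized counts in wildtype and 4382 ± 138 in the other group (SD, n = 3 each, adjusted p by limma = 0.00499). The 9 microglial markers summed to 5284 to 5687 in wildtype and 5306 to 5574 in the other group, with none called (2 had an unadjusted limma p under 0.05, and limma-voom gave 0 calls). No marker of either list was listed at 0. Both of these sums overlapped between the groups. The sums of the meningeal fibroblast markers were higher in the Zmiz1-KO-labelled libraries without overlap, as Apoe was (11496 to 14419 against 15636 to 17593). Those of the inhibitory neuron markers were also higher without overlap (13985 to 18252 against 18528 to 20605). Their gap was smaller than the spread within either group, and 5 of the 7 inhibitory markers overlapped. The part of any of these 4 cell types in the change of Apoe was not tested.

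Apod encodes a small lipid-binding protein of the lipocalin family, made by oligodendrocytes and by fibroblasts and pericytes of the brain's coverings and vessels. It had 536, 583 and 581 normalized counts in wildtype and 629.8, 739 and 601 in the Zmiz1-KO-labelled libraries. The groups did not overlap, but replicate 2 of the latter stood far above its fellows and the lowest of them exceeded the highest wildtype value only slightly. The log2 fold change was 0.21 (standard error 0.086, 95% interval 0.03 to 0.39), or 0.12 without that replicate, and the adjusted p by limma of 0.376 missed the threshold. The summed level of the 6 meningeal fibroblast markers was also higher in the Zmiz1-KO-labelled libraries, as given beside Apoe. All 6 had estimates above 0, and in 5 the groups did not overlap (8.1% of all tested genes), Lum being the one that overlapped, with an estimate of 0.06. None was called (5 had an unadjusted limma p under 0.05, and limma-voom gave 0 calls). Oligodendrocyte lineage markers, with 12 in the list, summed to 19798 to 22120.2 in wildtype and 18889 to 19898 in the other group. The part of either list in the value of Apod was not tested.

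Abca1 and Abcg1 encode the transporters that hand cholesterol to apolipoproteins. Abca1 was at 2428, 2841 and 2738 normalized counts in wildtype and at 2412, 3002 and 2466 in the Zmiz1-KO-labelled libraries. These ranges covered each other almost fully, and the difference of -0.03 on the log2 scale had a 95% interval of -0.25 to 0.20. Abcg1 ranged from 771 to 880.1 in wildtype and from 838 to 950.0 in the other group, with a log2 fold change of 0.11 (95% interval -0.05 to 0.26, adjusted p by limma = 0.640). Without wildtype replicate 3 it was 0.06, as it was without Zmiz1-KO-labelled replicate 2. For both transporters the groups overlapped and the 95% interval covered both directions. The interval of Abcg1 includes a change as large as that of Apoe. Cyp46a1, the neuronal hydroxylase that starts cholesterol clearance, had 2872, 2958 and 3082 normalized counts in wildtype and 3244, 3125 and 3237 in the other group. Its groups did not overlap, and the estimate of 0.11 on the log2 scale (standard error 0.045) had an adjusted p by limma of 0.374. Apoe therefore stood alone in its role group at the threshold used. Without adjustment, 3 of the 5 genes (Apoe, Apod and Cyp46a1) had a limma p under 0.05, all higher (5.13% of all tested genes). The same 3 were those without overlap (8.1% of all tested genes).

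**Figure D2:**
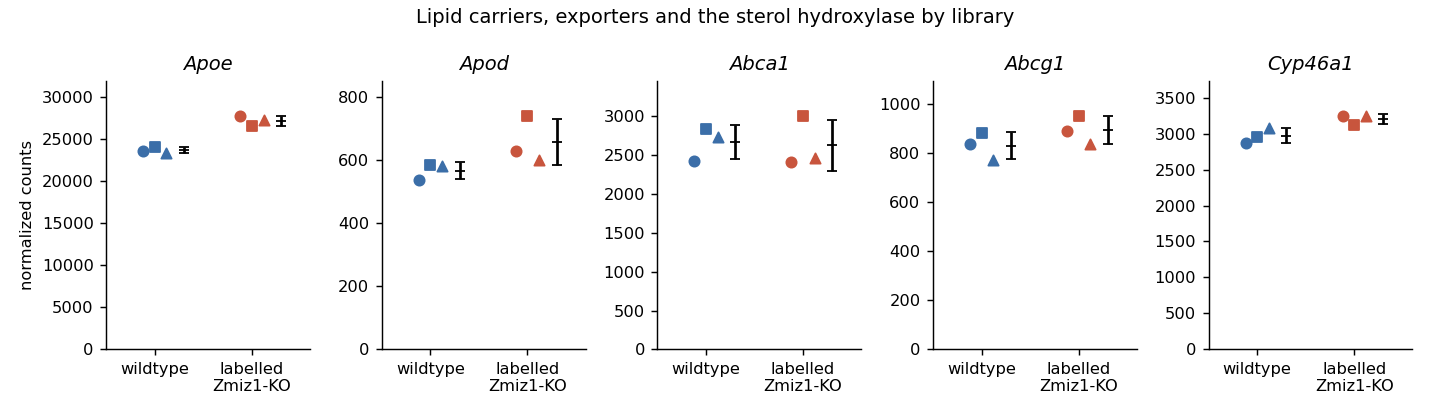
Normalized counts of the 5 genes of carriage, export and clearance, on axes that start at 0, with circles, squares and triangles for replicates 1, 2 and 3 and black bars for the mean and SD (n = 3 per group). The Apoe points of the groups are separated, from 23299.8 to 24000.0 in wildtype and from 26487 to 27697 in the Zmiz1-KO-labelled libraries, while those of Abca1 and Abcg1 overlap.

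The enzymes of synthesis leaned the other way, by small amounts. Of 18 enzymes, 17 had estimates below 0 (50.1% of all tested genes did), Fdps being the exception, and the median log2 fold change was -0.09, with a range of -0.17 to 0.02. In 7 of the 18 all Zmiz1-KO-labelled libraries lay below all of wildtype (8.16% of all tested genes), and 6 had an unadjusted limma p under 0.05 with a lower value (5.84% of all tested genes). None of the 18 had an adjusted p by limma at or under 0.05, nor did limma-voom call any. Summed over the 18 enzymes, wildtype held 85756 to 90693 normalized counts and the other group 81299 to 83252, so the sums did not overlap. Hmgcs1 alone gave 32032.5 to 34218 of the wildtype sums. Sums of the 10 fatty acid synthesis genes described below were also lower without overlap (121847 to 127569 against 118381 to 120246). So were those of 23 further uptake and transport genes, by a narrow margin (65715 to 67381 against 65498 to 65624).

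The enzymes share the same 6 libraries and are not independent of each other. Wildtype replicate 1 had the highest value of the 6 libraries for 9 of the 18 enzymes, and Zmiz1-KO-labelled replicate 2 the lowest for 9. Without wildtype replicate 1, 17 estimates stayed below 0 with a median of -0.07, and 2 enzymes kept an unadjusted limma p under 0.05. Without Zmiz1-KO-labelled replicate 2, 14 estimates were below 0, again with a median of -0.07. Under TMM and upper-quartile scaling, 17 of 18 stayed below 0, each with a median of -0.08.

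**Figure D3:**
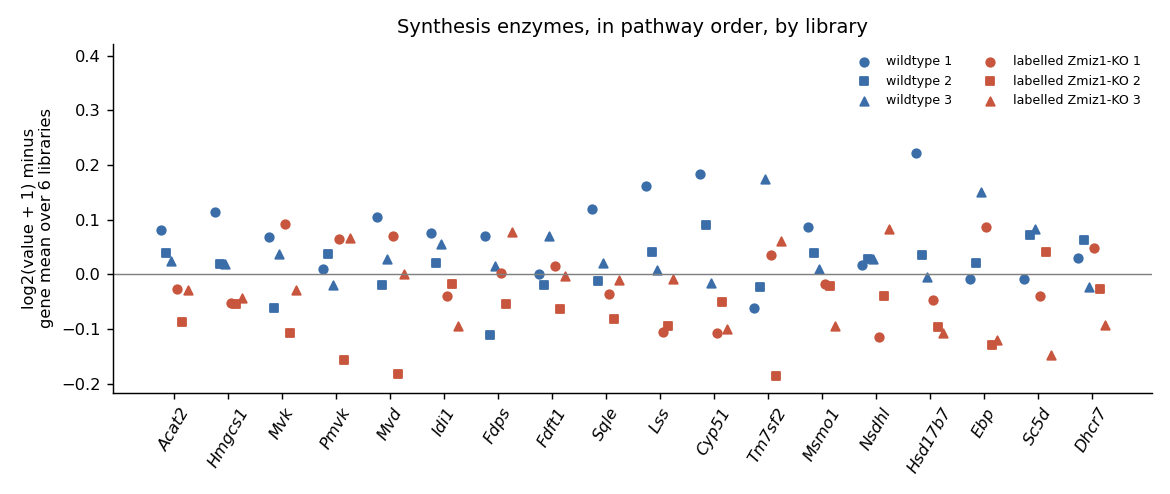
For each synthesis enzyme in pathway order, the log2(value + 1) of each library minus the mean of the 6 libraries, blue for wildtype and red for the Zmiz1-KO-labelled libraries. Blue points lie mostly above 0 and red points mostly below, wildtype replicate 1 (blue circles) is the highest library for 9 of the 18 genes, and Zmiz1-KO-labelled replicate 2 (red squares) the lowest for 9.

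Regulatory sequence is shown for 3 of the enzymes whose groups did not overlap, because promoters of this pathway are known for SREBP sites flanked by CCAAT boxes, which bind NF-Y. RefSeq starts on GRCm38.p6 were found for 29 of the 35 genes, with 42 starts in all, and the 250 bases before each start were searched on both strands. The motifs were TCACNCCAC for the sterol regulatory element, CCAAT, and GGGCGG for the GC box bound by Sp1, none of which contains another. Capitals mark the sterol regulatory element and CCAAT or its reverse complement. The windows are chr13:119690101-119690350 on the plus strand for Hmgcs1, chr5:4104698-4104947 on the minus strand for Cyp51, and chr10:76531355-76531604 on the plus strand for Lss, each read 5′ to 3′ toward the gene.
Hmgcs1: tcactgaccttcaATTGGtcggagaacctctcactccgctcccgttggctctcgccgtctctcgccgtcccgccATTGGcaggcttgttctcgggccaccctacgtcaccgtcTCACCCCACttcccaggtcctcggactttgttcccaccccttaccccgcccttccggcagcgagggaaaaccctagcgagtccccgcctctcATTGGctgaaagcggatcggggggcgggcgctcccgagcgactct
Cyp51: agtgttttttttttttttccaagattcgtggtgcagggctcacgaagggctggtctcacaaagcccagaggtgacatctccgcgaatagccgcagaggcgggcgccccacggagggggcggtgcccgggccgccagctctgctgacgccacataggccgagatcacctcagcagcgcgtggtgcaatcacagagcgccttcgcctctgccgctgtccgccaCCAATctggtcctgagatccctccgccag
Lss: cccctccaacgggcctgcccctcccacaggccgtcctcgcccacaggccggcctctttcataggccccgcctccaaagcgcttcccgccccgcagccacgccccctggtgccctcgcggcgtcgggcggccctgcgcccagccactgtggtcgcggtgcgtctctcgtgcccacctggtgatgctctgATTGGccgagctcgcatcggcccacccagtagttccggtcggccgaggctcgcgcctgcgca

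Hmgcs1 carried the only sterol regulatory element of this spelling among the 29 members searched, beginning 137 bases before the start, with CCAAT boxes at 237, 176 and 45 bases. Fdps, Fdft1, Sqle, Npc1, Stard4 and Abcg1 had no start to search. Cyp51 had a CCAAT box at 29 bases and Lss had one at 62 bases before the start. A CCAAT box was present in the window of 14 of the 15 synthesis enzymes that matched, by 14 of their 18 starts (77.8%), against 33.8% of all 32851 promoters in the table. Acat2 was the enzyme without one. GGGCGG was present at 15 of the 18 starts (83.3%) against 32.7% of all promoters, and TCACNCCAC at 1 (5.56%) against 1.05%. The enzymes were not alone in this. Among the regulators GGGCGG was at 7 of 10 starts (70%) and CCAAT at 5 of 10 (50%). For uptake and transport each was at 3 of 8 starts (37.5%). None of the 3 annotated starts of Apoe and neither the start of Apod nor that of Abca1 had CCAAT in its window, whereas Cyp46a1 had one at 153 bases. These matches describe letters near annotated starts and were not measured as binding.

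The early steps lead to the isoprenoid units. Acat2, the cytosolic thiolase that joins acetyl-CoA, had 5389, 5230.0 and 5178 normalized counts in wildtype and 4997, 4794 and 4992 in the Zmiz1-KO-labelled libraries, without overlap, a log2 fold change of -0.10 (adjusted p by limma = 0.382). Its value is uncertain because 33.9% of the 75-base stretches of its transcripts also occur in Acat3. Hmgcs1 (GRCm38 chromosome 13, 119690379 to 119708260, plus strand) was measured at 34218, 32048 and 32032.5 normalized counts in wildtype and 30517, 30456 and 30692 in the other group. The latter were nearly equal and all below wildtype, with a difference of -0.10 on the log2 scale (standard error 0.035, 95% interval -0.17 to -0.03, adjusted p by limma = 0.280). Mvk, Pmvk and Mvd, which phosphorylate mevalonate and then remove its carboxyl group, overlapped between the groups, with log2 fold changes of -0.03, -0.02 and -0.07. In these 3 genes Zmiz1-KO-labelled replicate 2 had the lowest value of all libraries. Idi1, which isomerises the isoprenoid unit, ranged from 3488 to 3624 in wildtype and from 3219 to 3398 in the other group, with no overlap and a log2 fold change of -0.10 (adjusted p by limma = 0.385). Fdps and Fdft1, which build farnesyl diphosphate and squalene, overlapped and changed by 0.02 (95% interval -0.09 to 0.12) and -0.03 (95% interval -0.12 to 0.05).

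Steps from squalene onward held the lowest estimates of the pathway. Sqle, the squalene epoxidase and a flux-controlling step, had 8153, 7439 and 7615 normalized counts in wildtype and 7315, 7091 and 7449 in the Zmiz1-KO-labelled libraries, which overlapped by a narrow margin. Its log2 fold change was -0.09 (adjusted p by limma = 0.484), or -0.05 without wildtype replicate 1. Lss, which folds the epoxide into lanosterol, had 3378, 3106 and 3038 in wildtype and 2809, 2829 and 3004 in the other group, with no overlap and a log2 fold change of -0.14 (standard error 0.050, adjusted p by limma = 0.295). Cyp51, the lanosterol demethylase, lies on chromosome 5 of GRCm38 from 4081145 to 4104746. It had 5709, 5354 and 4977 normalized counts in wildtype and 4672, 4855 and 4696 in the other group, where all values were below wildtype and close together. At -0.17 on the log2 scale (standard error 0.048, 95% interval -0.27 to -0.07), it was the lowest estimate of the 18 enzymes, and its adjusted p by limma of 0.169 missed the threshold. With each library left out in turn, the estimate for Cyp51 lay between -0.22 and -0.12.

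After demethylation, Tm7sf2 reduces the ring, Msmo1, Nsdhl and Hsd17b7 act in removing further methyl groups, and Ebp, Sc5d and Dhcr7 finish the sterol. Hsd17b7 had 1325, 1164 and 1133 normalized counts in wildtype and 1101, 1063 and 1054 in the Zmiz1-KO-labelled libraries, without overlap. Wildtype replicate 1 stood apart within its group, and the log2 fold change of -0.17 (standard error 0.066, adjusted p by limma = 0.351) was -0.10 without it. Msmo1 ranged from 2886 to 3044 in wildtype and from 2686 to 2833 in the other group, with no overlap and a log2 fold change of -0.09 (adjusted p by limma = 0.497). Tm7sf2, Nsdhl, Ebp, Sc5d and Dhcr7 overlapped, with log2 fold changes from -0.11 to -0.05. Nsdhl and Ebp are on the X chromosome, where the high-Xist libraries had 2113 and 2017 normalized counts of Nsdhl in wildtype and the other group, and 373 and 307 of Ebp. Transcripts of Idi1, Fdps and Fdft1 have 23.6%, 23.5% and 21.8% of their 75-base stretches in common with other genes, those of Hmgcs1, Tm7sf2 and Scap 9.79%, 8.83% and 8.26%, and the 28 members other than these and Acat2 at most 3.41%.

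**Figure D4:**
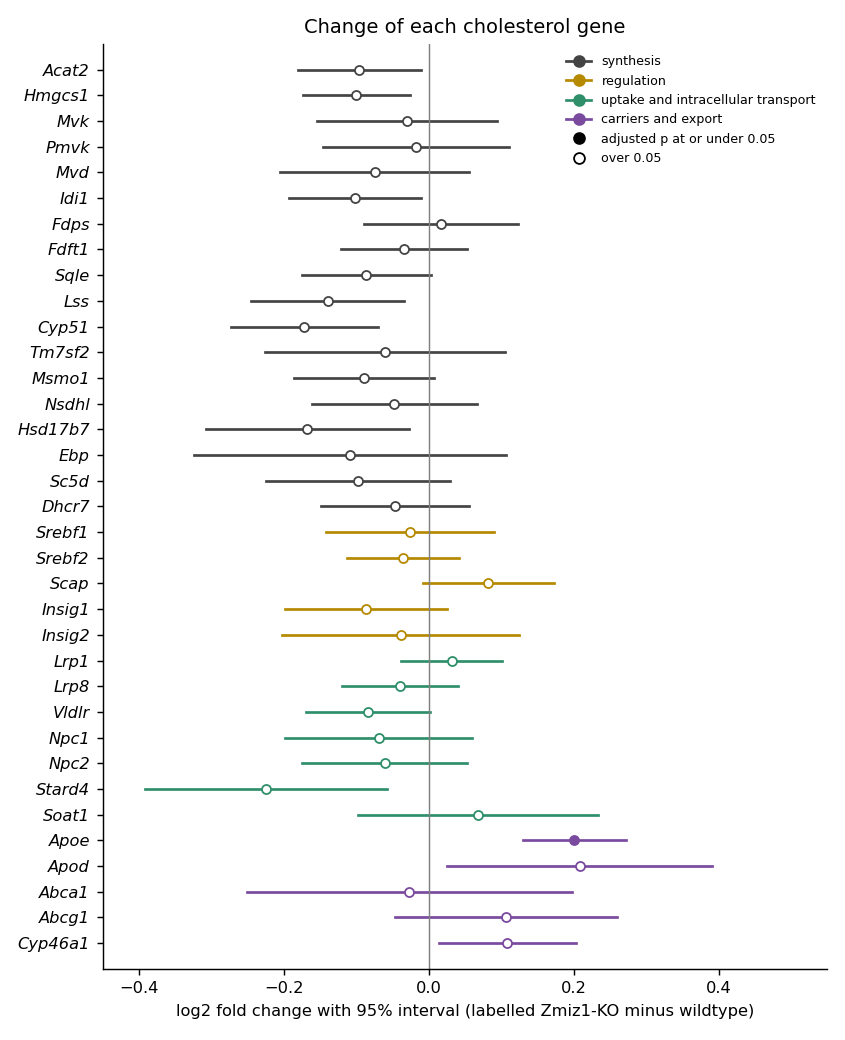
Log2 fold change of each member, in the order synthesis, regulation, uptake and transport, carriers and export, with the 95% interval from limma, and a filled point for an adjusted p at or under 0.05. Apoe is the only filled point at 0.20, and 17 of the 18 synthesis enzymes lie left of 0, down to -0.17 for Cyp51.

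The regulators above these enzymes showed no call, and all 5 overlapped between the groups. Srebf2 had 10439, 10204 and 10779 normalized counts in wildtype and 10276, 10197 and 10170.2 in the Zmiz1-KO-labelled libraries, a log2 fold change of -0.04 whose 95% interval ran from -0.11 to 0.04. Srebf1 changed by -0.03 (95% interval -0.14 to 0.09). Neither interval reaches a change of the size seen for Apoe. Scap, the escort of SREBP, had 4316, 4197 and 4149 normalized counts in wildtype and 4538, 4279.9 and 4588 in the other group, and was the only regulator with an estimate above 0 (0.08, standard error 0.043, adjusted p by limma = 0.510). Insig1, itself a target of SREBP and a retention partner of SCAP, ranged from 2764 to 3179 in wildtype and from 2702 to 2835 in the other group, a log2 fold change of -0.09 (adjusted p by limma = 0.587), or -0.03 without wildtype replicate 1. Insig2 changed by -0.04 (95% interval -0.20 to 0.13). None of the 5 had an unadjusted limma p under 0.05, and limma-voom called none.

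Among the receptors that take up apolipoprotein particles, no member was called. Lrp1, the large endocytic receptor of neurons and glia, was at 23518, 22795 and 23100.0 normalized counts in wildtype and at 23862, 23619.7 and 23456 in the Zmiz1-KO-labelled libraries. The highest wildtype value exceeded the lowest of the other group, and the difference of 0.03 on the log2 scale had a 95% interval of -0.04 to 0.10. Lrp8 and Vldlr, which are also the receptors of reelin in migrating neurons, ranged in wildtype from 6868 to 6927 and from 4538 to 4720.0 normalized counts. In the other group Lrp8 was at 6571 to 6879 and overlapped narrowly, and Vldlr was at 4273 to 4393, below all of wildtype. Their log2 fold changes were -0.04 (adjusted p by limma = 0.768) and -0.08 (adjusted p by limma = 0.471).

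Inside the cell, Npc1 and Npc2 pass cholesterol out of the lysosome, Stard4 carries it between membranes and Soat1 esterifies it. Stard4 had the lowest estimate of all 35 genes. It was at 2248, 1999 and 1743 normalized counts in wildtype and at 1723, 1704 and 1673 in the Zmiz1-KO-labelled libraries. The wildtype values spread widely, with replicate 3 only just above the other group, and the estimated log2 fold change was -0.22 (standard error 0.076, 95% interval -0.39 to -0.06), with an adjusted p by limma of 0.295. Without wildtype replicate 3 the adjusted p by limma was 0.0433, and without wildtype replicate 1 the estimate was -0.14. Npc1 and Npc2 overlapped, with log2 fold changes of -0.07 and -0.06, and Soat1 ranged from 573 to 605 in wildtype and from 585 to 665 in the other group, a change of 0.07 (95% interval -0.10 to 0.23).

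Further genes of the pathway and 10 genes of fatty acid synthesis, picked for their roles, were counted together in the same fit. Of 65 such genes 64 were tested, and none had an adjusted p by limma at or under 0.05, while 10 had an unadjusted limma p under 0.05 (11% of all tested genes), 4 higher and 6 lower, and limma-voom called none. Their median log2 fold change was -0.03. The gene with the smallest p in each list was Cyb5r3, which feeds electrons to sterol enzymes, among the synthesis genes (0.09), and Rxrb, a partner of the LXR receptors, among the regulators (0.16). For uptake it was Sorl1, a sorting receptor that binds APOE (-0.14), and for carriers Lpl, lipoprotein lipase (-0.20). The limma fit gave them adjusted p values of 0.442, 0.240, 0.253 and 0.151. The groups did not overlap in these 4 genes, which were picked by their small p. Over the 64 tested genes, the Zmiz1-KO-labelled libraries lay wholly above wildtype in 5 (8.1% of all tested genes) and below in 8 (8.16%). Lpl had 3906, 4002 and 3878 normalized counts in wildtype and 3105, 3656 and 3497 in the Zmiz1-KO-labelled libraries. Fatty acid synthesis, which SREBP also drives, had 10 of 10 estimates below 0 with a median of -0.05 and none with an unadjusted limma p under 0.05. Its smallest p belonged to Thrsp, a lipogenic nuclear protein, with 96.6 to 132 normalized counts in wildtype and 83.1 to 90.0 in the other group (adjusted p by limma = 0.456).

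Marker lists of the cells that make or receive cholesterol are set beside these values. The 12 oligodendrocyte lineage markers had a median log2 fold change of -0.14 with 9 of 12 estimates below 0, and the 12 astrocyte markers -0.03. Of the oligodendrocyte lineage markers, 5 had an unadjusted limma p under 0.05, all lower (5.84% of all tested genes). In 4 of the 12 the Zmiz1-KO-labelled libraries lay below all of wildtype (8.16% of all tested genes), and in none above. Of the astrocyte markers, 3 were lower (5.84% of all tested genes) and 1 higher (5.13%) at an unadjusted limma p under 0.05. In 3 of the 12 the Zmiz1-KO-labelled libraries lay below all of wildtype (8.16% of all tested genes) and in 1 above (8.1%). In 7 excitatory neuron markers the median was -0.10, with summed levels of 35997 to 40489.7 normalized counts in wildtype and 36196 to 37940.3 in the Zmiz1-KO-labelled libraries. The 7 inhibitory neuron markers had a median of 0.27 and summed to 13985 to 18252 in wildtype and 18528 to 20605 in the other group. These sums were narrowly apart, while 5 of the 7 genes overlapped between the groups. Of these 7, 4 had an unadjusted limma p under 0.05, all higher (5.13% of all tested genes). Vascular markers, with 8 genes, had a median of -0.04, and microglial markers -0.0005. Choroid plexus markers, with 7 genes, summed to 396 to 8614 in wildtype and 499 to 5026 in the other group, with the lowest sums in wildtype replicate 1 and Zmiz1-KO-labelled replicate 2. These 2 libraries lay at opposite ends for the synthesis enzymes. Wildtype replicate 1 was most often the highest, and Zmiz1-KO-labelled replicate 2 most often the lowest. Of all markers only Aqp4 was called. The part of any of these lists in the values of the synthesis enzymes was not tested.

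**Figure D5:**
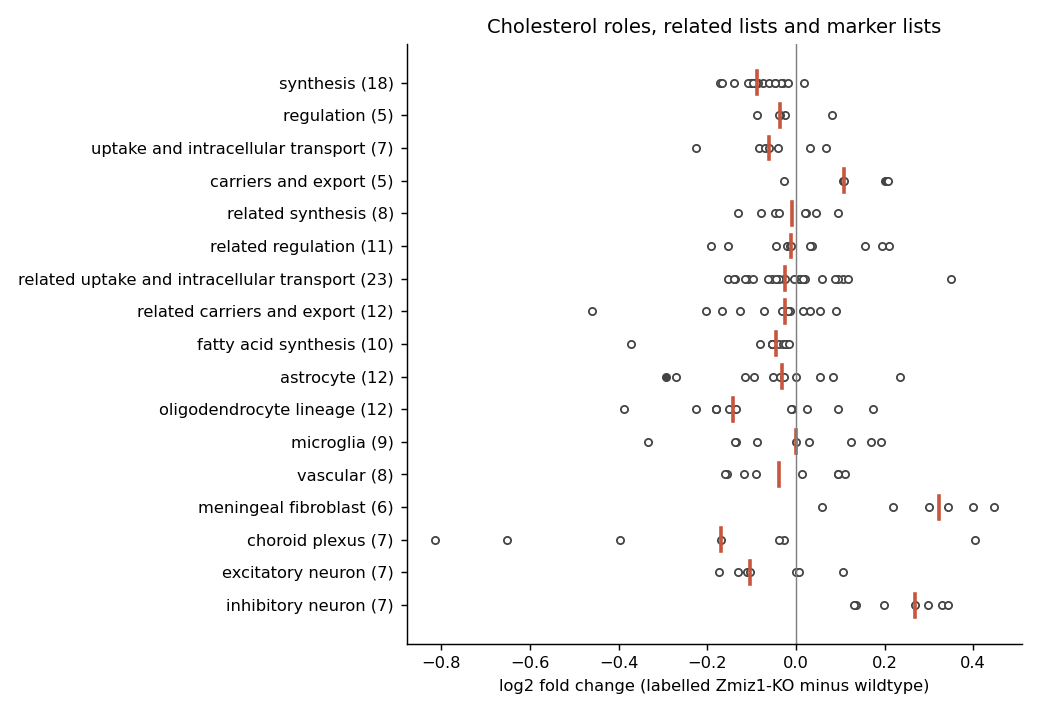
Log2 fold change of every tested gene in the 4 role groups, the 5 related lists and the 8 marker lists, with the number of genes in brackets, a red bar at the median and a filled point for an adjusted p at or under 0.05. Synthesis has its median at -0.09, carriers and export at 0.11, and the inhibitory neuron and meningeal fibroblast lists lie wholly above 0.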

How the data were processed

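RNA was extracted from P7 cortex of both genotypes, and libraries were made with a kit that does not mark strand. The authors aligned the reads to mm10 with STAR in Illumina BaseSpace, counted them per gene and normalized with DESeq2, and deposited 1 column of normalized signal values per library. Tool versions, gene annotation and the counting rule are not given in the sources used here. Low values of a library cluster near multiples of a step, 1.83 to 2.11 across libraries, which is not exactly the same for every gene of a library, so whole reads were not recovered, count models were not used, and an estimate of the depth, the sum of values divided by the step, is 15486928 to 17848076 reads per library. This depth and the 3 libraries per group limit the precision.

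Values were used as log2(value + 1). Genes reaching 10 in 3 or more libraries, 15800 in all, were compared, labelled Zmiz1-KO minus wildtype, with limma 3.58.1 (R 4.3.3), with an intensity trend, robust estimation, no covariate, and Benjamini-Hochberg adjustment over all tested genes. Fold changes are on this log2 scale, and 95% intervals come from limma. The members, lists and tests were chosen with earlier results of these data known. Every member is named, and from the related lists the gene with the smallest p and any gene called. The procedure was tested on simulated data. Coordinates, exon lengths and 75-base stretches shared with other genes, on either strand, are from GENCODE on GRCm38. Not every gene of the pathway is reported here. Figures were drawn with matplotlib 3.10.9. Alternatives were other pseudocounts, filters and scalings (median ratio, upper quartile, and the trimmed mean of M values, TMM, computed here from its formula), limma-voom, non-robust estimation, a block for replicate number, Xist as a covariate, and each library left out.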

Additional observations from a re-analysis of the deposited data

How the results depend on the processing

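The count of genes called over the whole table was 65 and moved to 17 without robust estimation and to 168 once a replicate block was added. With a library left out it ran from 12 to 152. The number of members called was 1 and became 0 without robust estimation, and it was 0 or 1 with a library left out. Without wildtype replicate 3 the 1 member called was Stard4 and not Apoe. Of the related genes, 0 were called, against 1 (Lpl) with the replicate block and 0 to 1 with a library left out, again Lpl, without Zmiz1-KO-labelled replicate 2. The median log2 fold change of the members was -0.042 under upper-quartile scaling and ran from -0.076 to -0.043 with a library left out. The causes were not tested. Under the alternatives that kept all libraries no member changed direction, and the call of Apoe held in 10 of 11. With a library left out Apoe passed in 3 of 6, and 7 small estimates changed sign in some of the 6 fits. Their ranges were -0.034 to 0.057 for Fdps, -0.093 to 0.039 for Insig2, -0.13 to 0.031 for Abca1, -0.11 to 0.018 for Tm7sf2, -0.083 to 0.016 for Mvk, -0.055 to 0.056 for Pmvk and -0.050 to 0.013 for Srebf1. Same-numbered libraries did not deviate together (correlations of -0.01, -0.11 and -0.01), so the replicate number was not taken as a pairing. With 3 libraries per group the exact permutation test of a single gene cannot go below 0.1.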
